A study of Homo sapiens with 18 samples.

Results

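RelA and cRel are the subunits of NF-κB that carry a transactivation domain and belong to its canonical arm, and the question here was which genes differ when one or the other is removed from the same B-cell line. The 3 libraries of the RelA knockout were set directly against the 3 libraries labelled cRel knockout, 6 of the 18 libraries in the series, and 3 control libraries gave the reference level. Of 17155 genes in the table, the 12381 with a mean of at least 10 over all 18 libraries were tested. All libraries come from GM12878, a human lymphoblastoid line, that is, B cells transformed by Epstein-Barr virus (EBV), and the labels give every one the genotype "Wildtype LMP1". Cells received a lentiviral guide against RELA, against REL or with no target (control), then went through 5 days of selection in puromycin (3 µg/ml) and an immunoblot for loss of the subunit, per the labels' protocols. Replicates are labelled biological. Not given in the sources used here is whether each came from its own transduced culture and whether the cells were pools or clones, and a p-value therefore measures only how far these libraries spread.

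NF-κB factors are dimers of RelA, RelB, cRel, p50 and p52. In the canonical arm, IκB proteins such as IκBα hold RelA and cRel dimers in the cytoplasm until the IKK kinase marks the inhibitor for destruction; in the non-canonical arm, the kinase NIK leads to processing of p100 to p52, the partner of RelB. Several NF-κB genes, among them those for IκBα, A20, p100 and RelB, are themselves known targets of NF-κB. In EBV-transformed B cells the viral membrane protein LMP1 acts like an always active TNF receptor family member and keeps both arms switched on.

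Values are deposited normalised read counts, means are ± SD with n = 3 libraries, and log2 differences are RelA knockout minus cRel-labelled, with their standard error (SE), from limma on log2(value + 1); genes counted as called had a p under 0.05 after Benjamini-Hochberg adjustment over all genes tested. Normalised counts are not divided by gene length, so levels were compared between libraries and not between genes. The 6 libraries held 19.8 to 26.8 M reads. Cells in all of them carried B-cell markers at high levels, with the 10 markers summing to 202400 to 206690 in the RelA knockout, 224060 to 237410 in the cRel-labelled libraries and 205390 to 234310 in the control. The sums of the 2 knockouts did not overlap, and CD74 alone had means of 83949 in the RelA knockout and 98531 in the cRel-labelled libraries. In the direct test 3 of the 10 markers were called lower in the RelA knockout and 1 higher, beside 6.2% and 4.75% of all genes. Messenger RNA of REL was not called lower in the cRel-labelled libraries, with 1298, 1315 and 1282 against 1554, 1717 and 856 in the control, where the third library stood apart (log2 difference from control -0.021, adjusted p 0.96). A guide need not lower the messenger RNA of its target, and the protein was not measured here, so these libraries are called by their label.

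The RelA knockout and the cRel-labelled libraries differed in 1356 genes, 11.0% of those tested. RelA knockout was higher for 588 genes (4.75%) and lower for 768 (6.2%), and in 1345 of the 1356 (10.9% of genes tested) the 3 libraries of one group did not overlap the 3 of the other. Over all genes tested, called or not, the RelA libraries lay wholly above the cRel-labelled ones in 1935 (15.6%) and wholly below in 1810 (14.6%). Most differences were modest: the median absolute log2 difference of called genes was 0.44, and 201 genes (1.62%) differed at least 2-fold, 88 of them higher (0.711%) and 113 lower (0.913%). Leaving out single libraries gave 926 to 1055 calls, with 382 higher calls without cRel-labelled library 2.

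**Figure D1:**
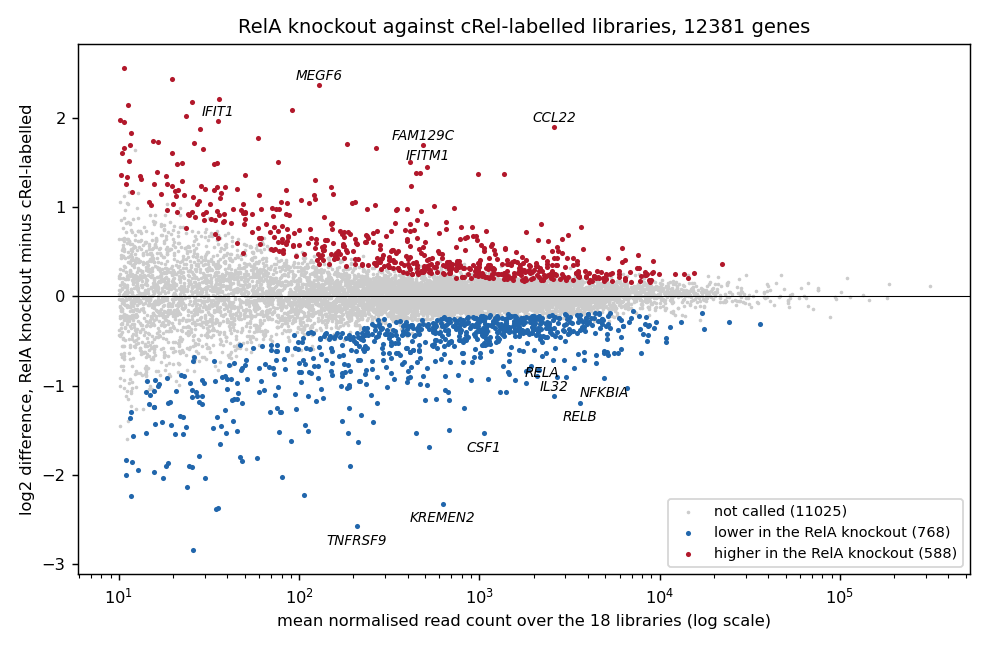
Log2 difference between the RelA knockout and the cRel-labelled libraries (vertical axis) against the mean normalised read count over 18 libraries (horizontal axis, log scale), 1 point per gene tested. Blue points are the 768 genes called lower and red points the 588 called higher; TNFRSF9 and KREMEN2 lie lowest among the named genes, MEGF6 highest, and CCL22 stands alone among abundant genes.

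Of the 5 subunit genes, 4 were lower in the RelA knockout than in the cRel-labelled libraries, beside 6.2% of all genes tested. RELA itself was at 1403, 1369.6 and 1332 in the RelA knockout. Its level was 2239.9, 2095 and 2214 in the cRel-labelled libraries and 2237, 2175 and 2212 in the control. All RelA libraries lay below all the others, with a log2 difference of -0.67 (SE 0.064, adjusted p 1.0e-07), and the cRel-labelled libraries overlapped the control. RELB, which encodes the activating subunit of the non-canonical arm, showed the widest gap, with 1865, 2024 and 1772 in the RelA knockout and 4567, 4318 and 4081 in the cRel-labelled libraries. That is a 2.29-fold lower level (log2 -1.20, SE 0.063, adjusted p 1.3e-11), and the control lay between them at 3319 ± 158: RELB was lower than control in the RelA knockout (log2 -0.82, adjusted p 1.3e-08) and higher than control in the cRel-labelled libraries (log2 0.38, adjusted p 3.7e-04).

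NFKB1, the gene of p105 and p50, stood at 5338, 4808 and 5267 against 8000, 7605 and 7633, a log2 difference of -0.59 (SE 0.061, adjusted p 2.7e-07). NFKB2, the gene of p100 and p52, stood at 6779, 6822 and 6411 against 9215, 10055 and 8964 (log2 -0.50, SE 0.057, adjusted p 1.5e-06). For both genes the groups did not overlap, and both were lower than control in the RelA knockout (log2 -0.46 and -0.36, adjusted p 3.4e-05 and 2.8e-04) without being called in the cRel-labelled libraries (log2 0.13 and 0.13, adjusted p 0.22 and 0.18). REL was at 1817, 1330.5 and 1833 in the RelA knockout and 1298, 1315 and 1282 in the cRel-labelled libraries, and this log2 difference of 0.34 did not pass the test (adjusted p 0.32), except when only these 2 groups were fitted (adjusted p 0.0060).

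**Figure D2:**
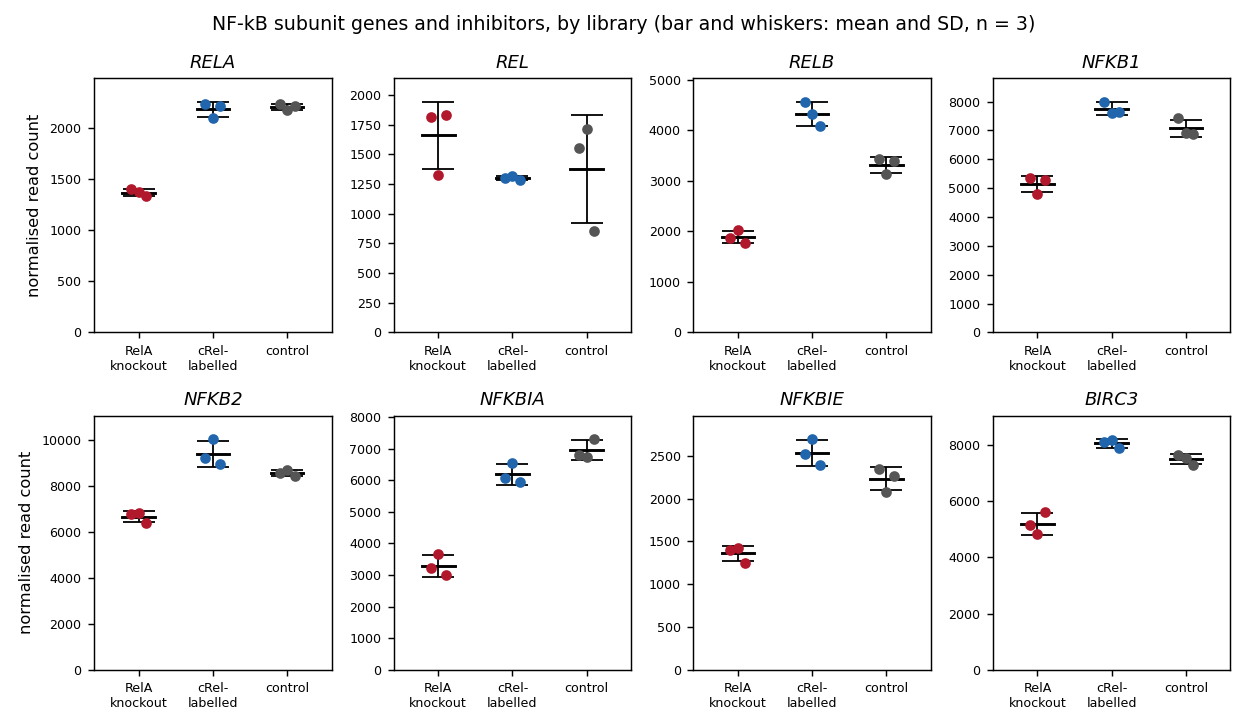
Normalised read count (vertical axis, from 0) of the 5 subunit genes and of NFKBIA, NFKBIE and BIRC3 in each library of the RelA knockout, the cRel-labelled group and the control; points are libraries, bars means and whiskers SD. Every RelA library lies below every cRel-labelled library except for REL.

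Several inhibitors and feedback regulators of NF-κB were lower in the RelA knockout than in the cRel-labelled libraries. Of 29 tested members of the list of NF-κB inhibitors, feedback and signalling genes, 14 were lower and 1 was higher, beside 6.2% and 4.75% of all genes, and the median log2 difference was -0.24. The count of lower calls fell to 9 without RelA library 3 or cRel-labelled library 1. Against control, 6 of the 29 were lower and 1 higher in the RelA knockout, beside 2.63% and 2.92% of all genes. In the cRel-labelled libraries 0 were lower than control and 4 higher, beside 1.92% and 4.17% of all genes. Among the IκB genes, NFKBIA, which encodes IκBα, was at 3212, 3652 and 2997 in the RelA knockout and 6063, 6549 and 5942 in the cRel-labelled libraries (log2 -0.92, SE 0.067, adjusted p 2.1e-09). NFKBIE, the gene of IκBε, was at 1401, 1424 and 1253 and 2519, 2699 and 2391 (log2 -0.90, SE 0.073, adjusted p 9.9e-09). Neither gene had overlapping groups, and in neither were the cRel-labelled libraries called different from control (log2 -0.17 and 0.18, adjusted p 0.15 and 0.15). The nuclear IκB genes showed smaller differences: NFKBIZ was lower, 514 ± 11.9 against 665 ± 27.2 (adjusted p 0.0078), and so was BCL3, 998 ± 51.2 against 1248 ± 74.5 (adjusted p 0.016). For NFKBIZ the control was at 451 ± 49.7. The cRel-labelled libraries were called above it (log2 0.57, adjusted p 2.6e-04) and the RelA knockout was not called (log2 0.20, adjusted p 0.22). NFKBID was lower at an adjusted p of 0.028, and NFKBIB, the gene of IκBβ, had a log2 difference of -0.26 that did not pass (adjusted p 0.058) but was called without RelA library 2 (0.040) or cRel-labelled library 3 (0.038), with the replicate block (0.043), and with only 9 libraries (0.043) or these 2 groups (0.0089) fitted. The call of BCL3 was lost without RelA library 3 or cRel-labelled library 1 (adjusted p 0.082 to 0.095). The call of NFKBID was lost without RelA library 1 or 3 or cRel-labelled library 1 or 2 (adjusted p 0.09 to 0.18).

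Genes of ubiquitin editing followed the same direction where they were called. CYLD, a deubiquitinase that restrains NF-κB signalling, was at 3857, 3776 and 4281 in the RelA knockout, 6137, 6402 and 6224 in the cRel-labelled libraries and 4556, 4618 and 4087 in the control. The direct log2 difference was -0.66 (SE 0.063, adjusted p 1.2e-07), and here it was the cRel-labelled group that stood apart from control (log2 0.50, adjusted p 1.7e-05, against -0.15 and 0.17 for the RelA knockout). TNIP1, an A20-binding inhibitor, was lower by 0.47 on the log2 scale (SE 0.057, adjusted p 3.4e-06). TNFAIP3, the gene of A20, was at 9618 ± 429 against 11782 ± 457 (log2 -0.29, adjusted p 0.016). The call of TNFAIP3 was lost without RelA library 2 or cRel-labelled library 1 or 2 (adjusted p 0.06 to 0.085). TNIP2 and OTULIN did not pass (log2 -0.20 and -0.063, adjusted p 0.079 and 0.66; TNIP2 was called without RelA library 2, at 0.048, and with only these 2 groups fitted, at 0.040), nor did TNIP3 (log2 -0.24, adjusted p 0.83), whose interval was wide, from -1.14 to 0.65.

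Among the adaptors and ligases downstream of TNF receptors, BIRC3, the gene of cIAP2, was at 5136, 4844 and 5623 against 8115, 8183 and 7886 (log2 -0.63, SE 0.057, adjusted p 4.2e-08). Its relative BIRC2, the gene of cIAP1, had the opposite sign and was not called (log2 0.18, adjusted p 0.14). TRAF3, a brake on NIK, was lower by 0.38 (adjusted p 1.5e-04), TANK by 0.29 (adjusted p 0.004) and TRAF2 by 0.30 (adjusted p 0.021) on the log2 scale. For TRAF3 and TANK the cRel-labelled libraries were called above control (log2 0.32 and 0.24, adjusted p 0.0020 and 0.028). Their RelA values were not called against control (log2 -0.063 and -0.051, adjusted p 0.62 and 0.71). The call of TRAF2 was lost without RelA library 1 or 3 or cRel-labelled library 1 or 2 (adjusted p 0.058 to 0.13). TRAF1, which is abundant in EBV-transformed B cells, was at 6287 ± 59.3 against 6250.3 ± 255 and did not differ by more than its spread (95% interval of the log2 difference -0.11 to 0.12), and TRAF5 was not called (log2 -0.10, adjusted p 0.62). Of the kinases and their partners, MAP3K14 (NIK), CHUK and IKBKB (IKK subunits), TBK1, MAP3K7 and RIPK1 had log2 differences between -0.14 and 0.18 and none was called (MAP3K14 was with only these 2 groups fitted, adjusted p 0.048), while TAB2, an adaptor of TAK1, was higher (log2 0.28, adjusted p 0.0062). The call of TAB2 was lost without RelA library 3 (adjusted p 0.050). MALT1, a paracaspase gene of antigen-receptor signalling, was not called (log2 -0.058, adjusted p 0.73). Its partner BCL10 was lower at an adjusted p of 0.044, a call that was lost whichever of the 6 libraries was left out.

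**Figure D3:**
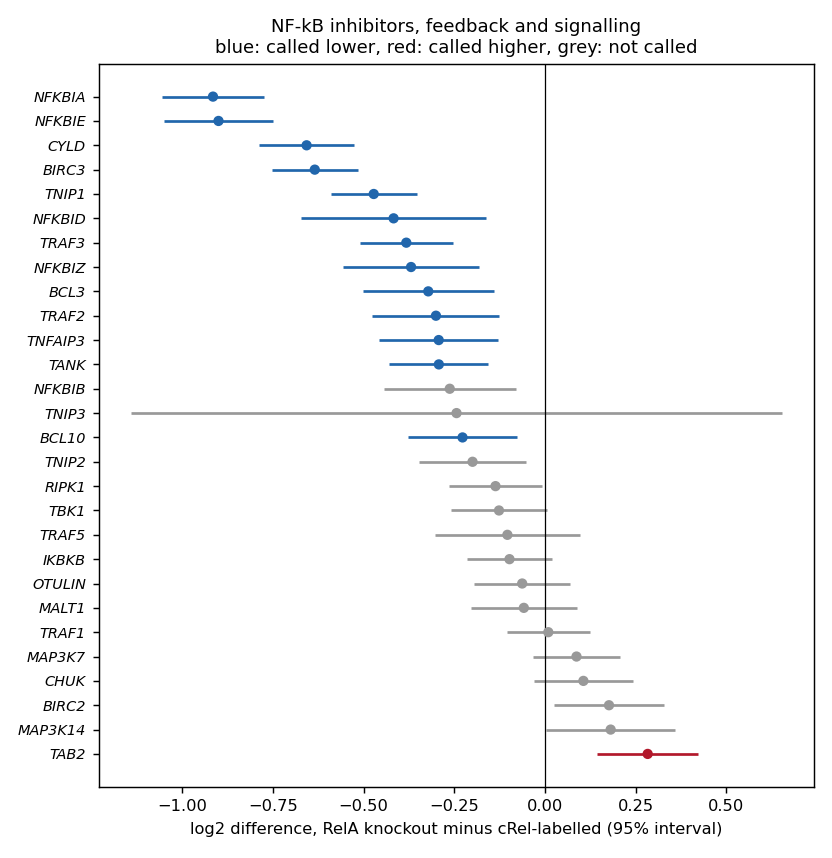
Log2 difference (horizontal axis, point) with its 95% interval (line) for 28 of the 29 tested members of the list of NF-κB inhibitors, feedback and signalling genes. NFKBIA and NFKBIE lie lowest, 13 of the genes shown are called lower (blue) and TAB2 alone is called higher (red).

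Promoters were searched for a stringent NF-κB motif because many of these genes are known targets. RefSeq promoters on GRCh38.p14, from 250 bases before to 50 after the start, were found by symbol or identifier for 9953 of the 12381 tested genes (80.4%). The motif was GGGA, any base, then TTTCC, read on either strand; all its matches are also matches of the wider κB consensus. It was in 0.558% of all 35116 RefSeq promoters of this length. It was in 23 of 601 promoters of genes called lower in the RelA knockout (3.83%), in 1 of 458 of genes called higher (0.218%) and in 35 of 8894 of genes not called (0.394%). Of the promoters of genes called lower and at least 2-fold, 6 of 83 held it. The wider κB consensus was in 19.3% of promoters of genes called lower, 13.5% of those called higher, 12.4% of those not called and 11.3% of all. All 23 matches in the genes called lower began upstream of the start, 18 of them within 100 bases. Shown are 50-base windows around 9 of the 23 matches, from some of the genes described here, and around the single match among genes called higher, that of OAS3. WNT10A and IFIH1, also described here and called lower, hold a match whose window is not shown. Each window is written 5′ to 3′ on the gene's strand with the match in capitals, which appears as its reverse complement where it lies on the other strand. A match describes letters in a window and was not tested as a binding site.
TNFRSF9: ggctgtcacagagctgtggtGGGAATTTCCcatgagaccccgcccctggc
LTB: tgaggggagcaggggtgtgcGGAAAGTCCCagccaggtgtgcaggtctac
IL32: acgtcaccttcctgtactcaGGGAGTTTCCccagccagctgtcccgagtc
NFKBIA: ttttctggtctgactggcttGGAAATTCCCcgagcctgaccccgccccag
IL27RA: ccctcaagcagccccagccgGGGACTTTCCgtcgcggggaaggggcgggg
NFKB1: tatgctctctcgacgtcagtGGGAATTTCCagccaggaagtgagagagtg
NFKBIZ: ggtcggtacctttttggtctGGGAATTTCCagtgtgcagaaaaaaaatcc
TNFAIP3: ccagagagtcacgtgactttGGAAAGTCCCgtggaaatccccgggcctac
TAP1: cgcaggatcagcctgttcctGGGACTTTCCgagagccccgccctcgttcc
OAS3: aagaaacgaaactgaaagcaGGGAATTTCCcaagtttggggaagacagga

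These windows belong to TNFRSF9 (chr1:7940884-7940933, minus strand), LTB (chr6:31582482-31582531, minus strand), IL32 (chr16:3065284-3065333, plus strand), NFKBIA (chr14:35404801-35404850, minus strand), IL27RA (chr19:14031674-14031723, plus strand), NFKB1 (chr4:102501290-102501339, plus strand), NFKBIZ (chr3:101827747-101827796, plus strand), TNFAIP3 (chr6:137867172-137867221, plus strand), TAP1 (chr6:32853747-32853796, minus strand) and OAS3 (chr12:112938324-112938373, plus strand), all on GRCh38.p14. The matches of NFKBIA, TNFRSF9 and IL32 begin 81, 74 and 99 bases before the start. IL27RA, a receptor chain for interleukin 27, was at 2322, 2575 and 2249.7 in the RelA knockout against 4206, 4069 and 4151 in the cRel-labelled libraries and 3145, 3030.4 and 3322 in the control. Its groups did not overlap, with a log2 difference of -0.80 (SE 0.057, adjusted p 1.4e-09). In the comparisons with the shared control, the motif was in 13 of 253 promoters of genes lower in the RelA knockout and in 2 of 284 of genes higher there, and in 14 of 401 promoters of genes higher in the cRel-labelled libraries and in 0 of 174 of genes lower there.

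The extremes were ranked among called genes whose groups did not overlap and whose higher group had a mean of at least 100. The 12 lowest of these in the RelA knockout included 2 receptors of the TNF receptor superfamily. TNFRSF9, which encodes the costimulatory receptor 4-1BB, was at 54.9, 36.9 and 49.5 in the RelA knockout, 293, 304 and 253 in the cRel-labelled libraries and 204, 145 and 163 in the control. The 3 groups did not overlap and the direct difference was 5.97-fold (log2 -2.58, SE 0.15, adjusted p 7.0e-11). TNFRSF18, the gene of GITR, was at 156, 174 and 106 against 489.6, 490.4 and 405 (log2 -1.69, SE 0.15, adjusted p 3.0e-08), and at 637 ± 48.3 in the control, from which the RelA knockout differed by log2 -2.15 (adjusted p 2.3e-09) while the cRel-labelled libraries were not called (log2 -0.47, adjusted p 0.063). KREMEN2, a receptor for Dickkopf inhibitors of WNT signalling, was at 209, 195 and 144 against 891, 981 and 850.5, with the control between at 543, 518 and 536 (log2 -2.32, SE 0.11, adjusted p 2.3e-12).

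CSF1, which encodes macrophage colony-stimulating factor, was at 468, 446 and 457 against 1329, 1394 and 1256, and at 1134 ± 83.6 in the control (log2 -1.53, SE 0.11, adjusted p 9.4e-10). CD69, an early activation antigen of lymphocytes, was at 129.9, 135 and 174 against 350.1, 447 and 477 and 257 ± 31.9 in the control (log2 -1.53, SE 0.14, adjusted p 4.2e-08). TREM1, an activating receptor best known from myeloid cells, and UBE2QL1, a gene of the ubiquitin-conjugating family, were lower by 2.23 and 1.90 on the log2 scale (adjusted p 8.9e-08 and 1.6e-11). For TNS3, a focal-adhesion protein, the RelA knockout and the control were close, at 64.5 ± 8.01 and 59.4 ± 7.38, while the cRel-labelled libraries were at 200.3 ± 9.32 (direct log2 -1.63, adjusted p 1.6e-07). The other genes among these 12 were NTNG1 (log2 -1.81), PILRA, an inhibitory receptor gene (-1.63), OXTR, the oxytocin receptor gene (-1.54), and FRAS1, an extracellular matrix gene (-1.51), with adjusted p from 2.4e-09 to 1.4e-04.

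Genes higher in the RelA knockout were led at high abundance by CCL22, the chemokine that attracts CCR4-bearing T cells. It was at 1904, 1801 and 1812 in the RelA knockout, 450.1, 567 and 464 in the cRel-labelled libraries and 2831, 2353 and 2494 in the control. The direct difference was 3.74-fold (log2 1.90, SE 0.076, adjusted p 1.2e-13), and both knockouts lay below control (log2 -0.47 in the RelA knockout, adjusted p 3.6e-04, and -2.37 in the cRel-labelled libraries, adjusted p 9.8e-16). MEGF6, which encodes a protein with EGF-like repeats, had the highest log2 difference of the genes ranked in this way, at 162, 176 and 182 against 27.1, 40.3 and 32.2 and 51.2 ± 9.15 in the control (log2 2.37, SE 0.18, adjusted p 2.4e-09). FAM129C, a gene expressed mainly in B cells, was at 1237, 1148 and 1168 against 383, 374 and 335 and 461 ± 56.0 in the control (log2 1.70, SE 0.092, adjusted p 1.7e-11).

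The other genes among the 12 highest of the same ranking included RNF157, a ubiquitin ligase gene (log2 1.77), CD93 (1.66), LTK, a receptor tyrosine kinase gene (1.51), and GIMAP5, a lymphocyte GTPase gene (1.38), with adjusted p from 7.1e-10 to 2.5e-07. SPRR2D and SPRR2A, cornified-envelope genes that are near-identical copies and may share reads, were at log2 2.09 and 1.71; the remaining 3 are interferon-stimulated and are described with the other genes of that kind. Among the most abundant genes with a log2 difference of at least 0.5 in size, IL4I1, an L-amino-acid oxidase gene, was at 8686 ± 376 against 12374 ± 1111 (log2 -0.51, adjusted p 6.0e-05), and HSPB1, a small heat-shock protein gene, at 4482 ± 450.1 against 6928 ± 315 (log2 -0.63, adjusted p 1.5e-05).

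**Figure D4:**
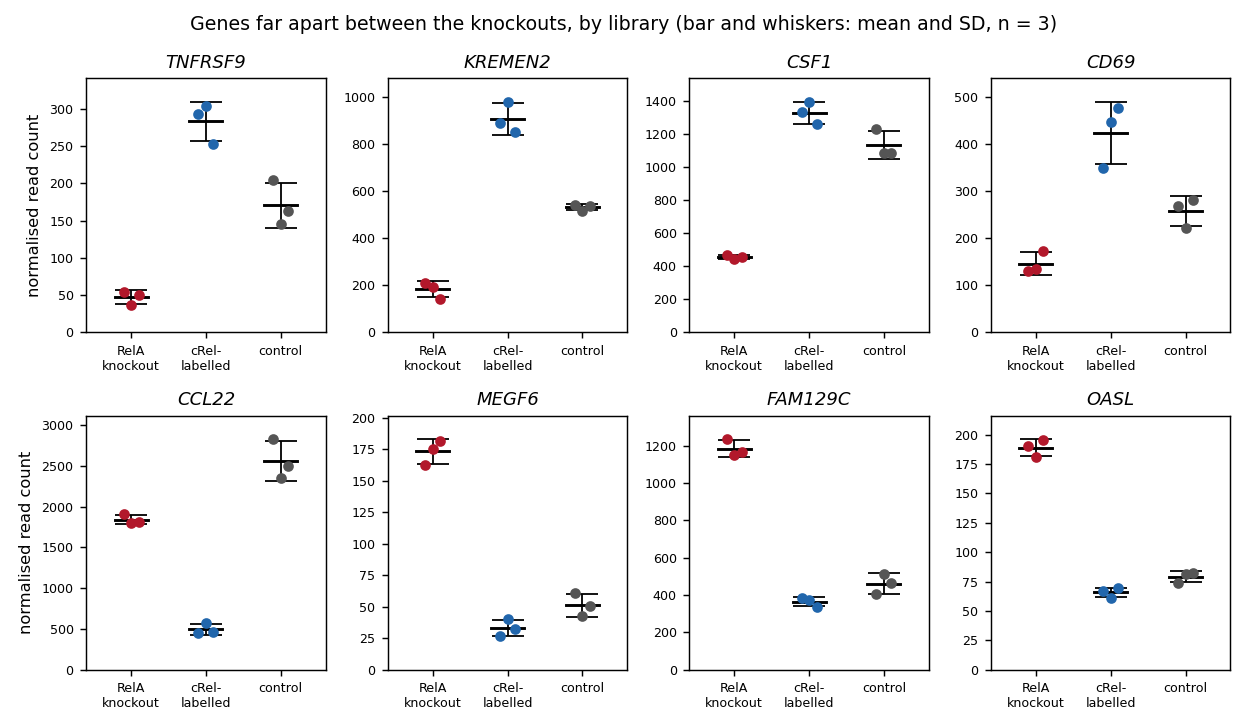
Normalised read count (vertical axis, from 0) by library for 4 genes lower and 4 genes higher in the RelA knockout than in the cRel-labelled libraries, with the control; points are libraries, bars means and whiskers SD. CCL22 is lowest in the cRel-labelled libraries, and TNFRSF9 and KREMEN2 are lowest in the RelA knockout and highest in the cRel-labelled libraries.

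Targets of NF-κB known from EBV-transformed and activated B cells did not differ as a block between the RelA knockout and the cRel-labelled libraries. Of 40 tested, 8 were higher and 9 lower, beside 4.75% and 6.2% of all genes, with a median log2 difference of -0.04. Against control, 6 of the 40 were higher and 14 lower in the RelA knockout, beside 2.92% and 2.63% of all genes. In the cRel-labelled libraries 5 were higher than control and 12 lower, beside 4.17% and 1.92% of all genes. Lower in the RelA knockout were CD83, a maturation antigen, at 2816, 2721 and 2899 against 4218, 4738 and 4373 (log2 -0.66, SE 0.061, adjusted p 6.5e-08), and ICAM1, the adhesion ligand of LFA-1, at 3339.8, 3295 and 3135 against 5249.7, 4847 and 4856 (log2 -0.61, SE 0.075, adjusted p 3.9e-06). The transcription factor gene IRF1, the death receptor gene FAS and SLAMF7 were lower by 0.40, 0.44 and 0.35 on the log2 scale (adjusted p 1.4e-04, 4.3e-04 and 8.1e-04). Higher were the costimulatory ligand gene CD86 at 1429.7, 1399.8 and 1595 against 1052, 1085 and 1051 (log2 0.47, SE 0.065, adjusted p 1.8e-05) and BCL2L1, the gene of the survival factor BCL-xL, at 1797, 1822 and 1717 against 1391, 1407 and 1290.1 (log2 0.38, SE 0.072, adjusted p 6.8e-04). BCL2L1 was at 2176 ± 117 in the control. It was called below control in the RelA knockout (log2 -0.29, adjusted p 0.016) and further below in the cRel-labelled libraries (log2 -0.67, adjusted p 1.7e-06). Among members that did not pass, CD40 had a log2 difference of -0.11 (95% interval -0.25 to 0.036), TNF of -0.0091 (-0.23 to 0.21), BCL2A1 of -0.18 (-0.43 to 0.079) and CD80 of 0.18 (0.0054 to 0.35). The intervals are not adjusted for the number of genes tested, and that of CD80 does not span 0. TNF and BCL2A1 were called below control in the RelA knockout (log2 -0.38 and -0.65, adjusted p 0.036 and 0.0019). They were also called below control in the cRel-labelled libraries (log2 -0.37 and -0.47, adjusted p 0.039 and 0.021).

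Of 23 tested chemokine and cytokine ligand genes, 9 were lower in the RelA knockout and 2 higher, beside 6.2% and 4.75% of all genes. The median log2 difference was -0.14. IL32, which encodes a pro-inflammatory cytokine, was at 1078, 1067 and 1000.5 against 2177, 2385 and 2261 and at 2250.1 ± 429 in the control (log2 -1.12, SE 0.10, adjusted p 7.0e-08). LTB, the gene of lymphotoxin β, was at 114, 129 and 95.6 against 279, 303 and 269 and 159 ± 14.4 in the control (log2 -1.33, SE 0.16, adjusted p 2.0e-06). Some ligands were called above control in the cRel-labelled libraries and not called in the RelA knockout. TNFSF13B, the gene of the B-cell survival factor BAFF, was at 124 ± 21.9 in the RelA knockout, 250.1 ± 6.85 in the cRel-labelled libraries and 124 ± 9.41 in the control, and IL7 at 100 ± 11.9, 185 ± 12.4 and 102 ± 11.6. Their direct log2 differences were -1.02 and -0.89 (adjusted p 1.7e-06 and 2.5e-05), and against control the cRel-labelled values were 1.01 and 0.86 (adjusted p 5.6e-06 and 9.7e-05) and the RelA values -0.0091 and -0.023 (adjusted p 0.98 and 0.94). IL16 and IL15 were lower by 0.83 and 0.58 on the log2 scale (adjusted p 2.6e-08 and 4.0e-04), and IL12A, the p35 subunit gene shared by interleukins 12 and 35, was higher (log2 0.82, adjusted p 3.2e-05).

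Of 17 tested genes of the TNF receptor superfamily, 6 were lower and 1 was higher, beside 6.2% and 4.75% of all genes. The higher one was TNFRSF8, the gene of CD30, at 4189 ± 334 against 3256 ± 99.2 (log2 0.36, adjusted p 2.6e-04). Among 32 activation, costimulation and adhesion molecules, 7 were lower and 5 higher, beside 6.2% and 4.75% of all genes. The higher count was 3 without RelA library 2 or cRel-labelled library 2. Called molecules included ITGB2, the β chain of LFA-1 (log2 -0.33, adjusted p 0.0017), and CD274, the gene of PD-L1 (log2 -0.37, adjusted p 0.0031), both lower. Among 11 chemokine and homing receptor genes 2 were higher and 0 lower, beside the same 4.75% and 6.2%. The higher count was 1 without RelA library 1 or 2 or cRel-labelled library 2 and with a mean of at least 100, 4 with DESeq2 or the replicate block, and 5 with only these 2 groups fitted. DESeq2, the replicate block and the fits of 9 libraries or of only these 2 groups each also called 1 gene lower. The called genes included S1PR1, the receptor that guides lymphocyte exit from lymphoid tissue, at 1462, 1436 and 1353 against 918, 782 and 980.1 (log2 0.67, SE 0.093, adjusted p 2.0e-05).

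Each group's own value against control places these differences. The RelA knockout differed from control in 687 genes (5.55%), 361 higher (2.92%) and 326 lower (2.63%), and the cRel-labelled libraries in 754 (6.09%), 516 higher (4.17%) and 238 lower (1.92%); both comparisons use the same 3 control libraries. Without RelA library 3 the first count was 413, and without cRel-labelled library 3 the second was 448. Without RelA library 1 and control library 1 the first was 454 and 442, and without cRel-labelled library 2 and control library 3 the second was 475 and 481. Some genes were called in opposite directions. KREMEN2 was at log2 -1.56 from control in the RelA knockout and 0.77 in the cRel-labelled libraries (adjusted p 3.6e-09 and 8.5e-05), TNFRSF9 at -1.84 and 0.74 (3.0e-08 and 0.0032), and UBE2QL1 at -1.16 and 0.74 (9.0e-08 and 5.3e-05). TREM1 was at -0.94 and 1.28 (adjusted p 0.0076 and 3.7e-04), and MEGF6 ran the other way at 1.75 and -0.61 (adjusted p 7.8e-07 and 0.039), as did IFIT1 at 1.05 and -0.91 (adjusted p 0.023 and 0.049).

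Other genes were called in the same direction in both and not in the direct test. DUSP2, a MAP kinase phosphatase gene, was at 1976 ± 48.8 in the RelA knockout, 1864 ± 115 in the cRel-labelled libraries and 3466 ± 314 in the control, and the direct log2 difference of 0.086 had a 95% interval of -0.082 to 0.25. CD9, a tetraspanin gene, was at 329 ± 11.3, 286 ± 18.3 and 569 ± 34.5, with an interval of 0.013 to 0.39. GBP4, a guanylate-binding protein gene, was above control in both, at 659 ± 30.4, 717 ± 39.1 and 323 ± 18.1 (direct interval -0.30 to 0.056), as was ENPP2, the gene of autotaxin, at 351 ± 26.8, 360.3 ± 23.5 and 189 ± 20.6 (direct interval -0.24 to 0.16). For COL5A3 and KIAA1671 the direct intervals were 0.12 to 0.73 and -0.91 to -0.077, and both were called when only these 2 groups (adjusted p 0.0079 and 0.0033) or 9 libraries (0.046 and 0.010) were fitted. COL5A3 was also called by edgeR (0.047), by DESeq2 (0.035) and without cRel-labelled library 2 (0.048). These intervals are not adjusted for the number of genes tested, and those of CD9, COL5A3 and KIAA1671 do not span 0. An interval that spans 0 leaves room for a difference of the size it covers and does not show equal levels.

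B-cell genes differed in both directions. Of 28 B-cell identity and receptor-signalling genes, 7 were lower in the RelA knockout and 3 higher, beside 6.2% and 4.75% of all genes. Without RelA library 2, 1 was higher. CD22, an inhibitory coreceptor of the B-cell receptor, was at 3513, 3149.6 and 3448 against 5162, 5005 and 5381 (log2 -0.62, SE 0.061, adjusted p 1.5e-07). CR2, the complement receptor CD21 by which EBV enters B cells, was at 646, 609 and 737 against 274, 361 and 356 (log2 1.01, SE 0.11, adjusted p 4.2e-07). The transcription factor gene SPIB, the adaptor gene BLNK and the coactivator gene POU2AF1 were lower by 0.41, 0.36 and 0.33 on the log2 scale (adjusted p 1.3e-04, 0.0023 and 0.0023).

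Of 17 germinal-centre genes, 6 were lower and 2 higher, beside 6.2% and 4.75% of all genes, with 1 higher without cRel-labelled library 2. BCL6, the master repressor of the germinal-centre state, was at 226, 231 and 221 in the RelA knockout, 421, 455 and 439 in the cRel-labelled libraries and 199.6, 276 and 235 in the control. The RelA libraries overlapped the control and the cRel-labelled libraries lay above both (direct log2 -0.95, SE 0.15, adjusted p 8.6e-05; cRel-labelled against control 0.90, adjusted p 3.7e-04). LMO2 and RGS13 were lower by 0.62 and 1.30 (adjusted p 6.2e-04 and 1.9e-06). Of 20 plasma-cell programme genes, 4 were higher and 1 lower, beside 4.75% and 6.2% of all genes. The higher count was 2 without RelA library 3 or cRel-labelled library 3 and 8 with only these 2 groups fitted. The lower count was 2 with edgeR, DESeq2, TMM scaling, the replicate block or fewer groups in the fit. PRDM1, the gene of BLIMP1, which drives plasma-cell differentiation and opposes BCL6, was at 1123, 1294 and 1119 against 689.7, 665 and 738 and 903 ± 74.3 in the control (log2 0.75, SE 0.099, adjusted p 9.5e-06). IRF4, a factor needed by plasma cells and by EBV-transformed lines, was at 26441, 24834 and 26146 against 20147, 20103 and 19937 (log2 0.36, SE 0.072, adjusted p 0.0013), while the syndecan gene SDC1 was lower (log2 -0.25, adjusted p 0.0071).

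Antigen presentation genes were mostly lower in the RelA knockout where they were called. Of 21 genes of MHC class II presentation, 8 were lower and 2 higher, beside 6.2% and 4.75% of all genes. The lower count was 5 without RelA library 3 or cRel-labelled library 2. The higher count was 1 whichever single library was left out or with no filter on low values. HLA-DQA1 was at 14614 ± 342 against 18868 ± 267 (log2 -0.37, adjusted p 5.6e-04) and HLA-DQB1 at 6782 ± 188 against 8506 ± 296 (log2 -0.33, adjusted p 0.0038); these genes have close paralogs with which they may share reads. RFX5, a factor that binds class II promoters, was lower by 0.29 (adjusted p 0.0014), and LGMN, a lysosomal protease gene, was higher (log2 0.85, adjusted p 8.3e-05). Of 21 genes of MHC class I and peptide loading, 4 were lower and 0 higher, beside the same 6.2% and 4.75%. The lower count was 1 to 2 when a single library was left out and 2 with no filter on low values. TAPBP, the gene of tapasin, was at log2 -0.31 (adjusted p 0.009) and TAP1, the peptide transporter gene, at -0.20 (adjusted p 0.014). The call of TAPBP was lost without cRel-labelled library 1 (adjusted p 0.056). The call of TAP1 was lost without cRel-labelled library 2 or 3 (adjusted p 0.066 to 0.075).

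More interferon-stimulated genes were higher than lower in the RelA knockout. Of 34 tested, 19 were higher and 2 lower, beside 4.75% and 6.2% of all genes, and the median log2 difference was 0.31; without cRel-labelled library 1 the count of higher genes was 12. Against control, 17 of the 34 were higher and 0 lower in the RelA knockout, beside 2.92% and 2.63% of all genes (median log2 0.33). In the cRel-labelled libraries 5 were higher than control and 4 lower, beside 4.17% and 1.92% (median log2 -0.051). USP18, a protease that removes ISG15 and damps interferon receptor signalling, was at 442, 508 and 463 against 265, 235 and 224 and 312 ± 15.5 in the control (log2 0.96, SE 0.087, adjusted p 4.2e-08). MX1, an antiviral GTPase gene, was at 3761, 3430.3 and 3813 against 2296, 2377 and 2368 and 2709.7 ± 11.7 in the control (log2 0.64, SE 0.066, adjusted p 2.5e-07). The groups did not overlap for either gene, and the control lay between them. For MX1 the cRel-labelled libraries were not called against control (log2 -0.21, adjusted p 0.064). OAS2 and ISG15 were at log2 0.67 and 0.78 (adjusted p 1.6e-06 and 1.6e-04). The widest gaps were in genes with few reads. IFI44L was at 63.8, 66.0 and 70.2 against 14.6, 15.6 and 11.9 (log2 2.18, SE 0.24), IFIT1 at 95.2, 101 and 106 against 18.8, 34.8 and 23.7 (log2 1.97, SE 0.27) and OASL at 190.3, 181 and 196 against 66.7, 61.3 and 69.5 (log2 1.51, SE 0.18), with adjusted p of 9.7e-07, 2.1e-05 and 1.7e-06.

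IFITM1, an antiviral membrane protein gene that is not in the list, was at 813, 717 and 758 against 303, 225 and 314 (log2 1.45, SE 0.11, adjusted p 4.2e-09). The 2 lower members of the interferon list were IFIH1, the RNA sensor MDA5, at 1398 ± 85.1 against 1794 ± 26.4 (log2 -0.36, adjusted p 0.0029), and GBP1, at log2 -0.32 (adjusted p 0.014). The call of GBP1 was lost without RelA library 1 or cRel-labelled library 1 or 3 (adjusted p 0.06 to 0.079). OAS3, whose promoter window is shown above, was higher at an adjusted p of 0.041, and this call was lost whichever single library was left out.

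Of 13 tested replication-dependent histone genes, 5 were higher in the RelA knockout and 0 lower, beside 4.75% and 6.2% of all genes. The median log2 difference was 0.54. The count of higher genes was 2 without RelA library 1 or cRel-labelled library 2 and 3 without RelA library 2 or cRel-labelled library 3. Against control, 6 of the 13 were higher and 0 lower in the RelA knockout, beside 2.92% and 2.63% of all genes (median log2 0.47). In the cRel-labelled libraries 0 were called against control, beside 6.09% of all genes (median log2 0.040). HIST1H2AC was at 1382, 1389 and 1186 against 942, 731 and 867 (log2 0.64, adjusted p 2.0e-04) and HIST2H2BE at 648, 697 and 594 against 432, 344 and 383 (log2 0.74, adjusted p 2.4e-04). HIST1H2BK was at 10136, 10801 and 8844 against 8194, 5785 and 6649.8 and 6509 ± 998 in the control (direct log2 0.54, adjusted p 0.02). The call of HIST1H2BK was lost without RelA library 1 or 2 or cRel-labelled library 2 or 3 (adjusted p 0.068 to 0.14). Most histone messages end without a poly(A) tail and the libraries were made from polyadenylated RNA, so these values count the tailed part only, and near-identical histone genes may share reads. DNA replication and mitosis genes held 1 called gene of 28, beside 11.0% of all genes called in either direction. It was BUB1, a spindle checkpoint kinase gene (log2 0.39, adjusted p 1.7e-04).

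Of 28 apoptosis regulators, 5 were lower and 2 higher, beside 6.2% and 4.75% of all genes. BCL2L11, the gene of the death-promoting protein BIM, was at 1473, 1194 and 1286 in the RelA knockout, 2380.5, 2358 and 2480.3 in the cRel-labelled libraries and 1645, 1574 and 1349 in the control (direct log2 -0.87, SE 0.099, adjusted p 1.3e-06). BBC3, the gene of PUMA, was lower (log2 -0.50, adjusted p 4.4e-04) and PMAIP1, the gene of NOXA, was higher (log2 0.39, adjusted p 2.4e-04). Of 24 migration and cytoskeleton genes, 5 were higher and 1, TNS3, was lower, beside 4.75% and 6.2% of all genes. With DESeq2 or with only these 2 groups fitted 9 were higher, and 3 of 21 with a mean of at least 100. LMNA, the lamin A gene, was at 3969, 4129 and 3281 against 2235, 2459.5 and 1936 and 3746 ± 321 in the control, so the cRel-labelled libraries were the ones below control (direct log2 0.78, SE 0.10, adjusted p 1.0e-05; cRel-labelled against control -0.76, adjusted p 3.9e-05). AHNAK, a large scaffold protein gene, was at 2648, 2269.7 and 2183 against 1195, 1404 and 1454 and 1357 ± 366 in the control (direct log2 0.81, adjusted p 9.3e-04), and there the RelA knockout was above (against control 0.84, adjusted p 0.0016).

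Of 29 immediate-early and stress genes, 4 were higher and 7 lower, beside 4.75% and 6.2% of all genes, with 4 lower without cRel-labelled library 2. KLF2, a factor of resting lymphocytes that also controls S1PR1, was at 803, 977 and 721 against 328, 277 and 352 and 584 ± 111 in the control (log2 1.38, SE 0.13, adjusted p 7.4e-08). NR4A2, an orphan nuclear receptor gene, was at 43.7, 50.3 and 46.1 against 92.7, 148 and 112 (log2 -1.29, SE 0.17, adjusted p 6.9e-06), and JUN was higher (log2 0.70, adjusted p 0.0038). Among 26 EBV super-enhancer and growth genes 5 were higher and 5 lower, beside the same 4.75% and 6.2%. The lower count was 3 without RelA library 2 or cRel-labelled library 2 and 8 with only these 2 groups fitted. The kinase gene PIM1 was at 1707, 1778 and 1656 against 3323, 3201 and 3085 and 3150.1 ± 24.6 in the control (log2 -0.90, SE 0.068, adjusted p 3.3e-09).

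Metabolic lists were examined next, beside the 4.75% of all genes called higher and the 6.2% called lower. Of 21 cholesterol synthesis and uptake genes, 7 were lower and 0 higher, but the count was 1 without cRel-labelled library 2, 2 without RelA library 2 or cRel-labelled library 3, 3 without cRel-labelled library 1, and 13 when only these 2 groups were fitted. MVK, mevalonate kinase, was at 1054 ± 31.7 against 1327 ± 9.22 (log2 -0.33, adjusted p 0.0096). Of 27 genes of the ATF4 and unfolded-protein response, 5 were higher and 1 lower; CTH, a transsulfuration enzyme gene, was at 596, 521 and 584 against 391, 341 and 357 (log2 0.64, adjusted p 2.7e-05), and the serine synthesis genes PHGDH and PSAT1 were at log2 0.38 and 0.33 (adjusted p 6.3e-04 and 0.0038). Glycolysis and hypoxia genes had 2 higher and 2 lower of 27, and p53 targets 2 higher and 3 lower of 29. Both lists were near the 4.75% and 6.2% of all genes, and nothing was read from either. For glycolysis and hypoxia, leaving out a single library gave 0 to 2 higher and 1 to 2 lower, and fitting only these 2 groups 5 lower. For p53 targets, 1 was higher when any library except RelA library 3 was left out, with quantile scaling, with no filter or with 9 libraries fitted. The lower count there was 5 to 6 with 9 or 6 libraries fitted. In limma's test 0 of 27 MYC and ribosome biogenesis targets, 0 of 29 nuclear-encoded respiratory chain genes, 0 of 13 mitochondrially encoded transcripts and 0 of 36 ribosomal protein genes were called. At an unadjusted p under 0.05 these lists held 1, 1, 0 and 0 genes, and edgeR and DESeq2 called 0 in each. With only these 2 groups fitted, 2 respiratory chain genes were called higher and 1 lower.

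**Figure D5:**
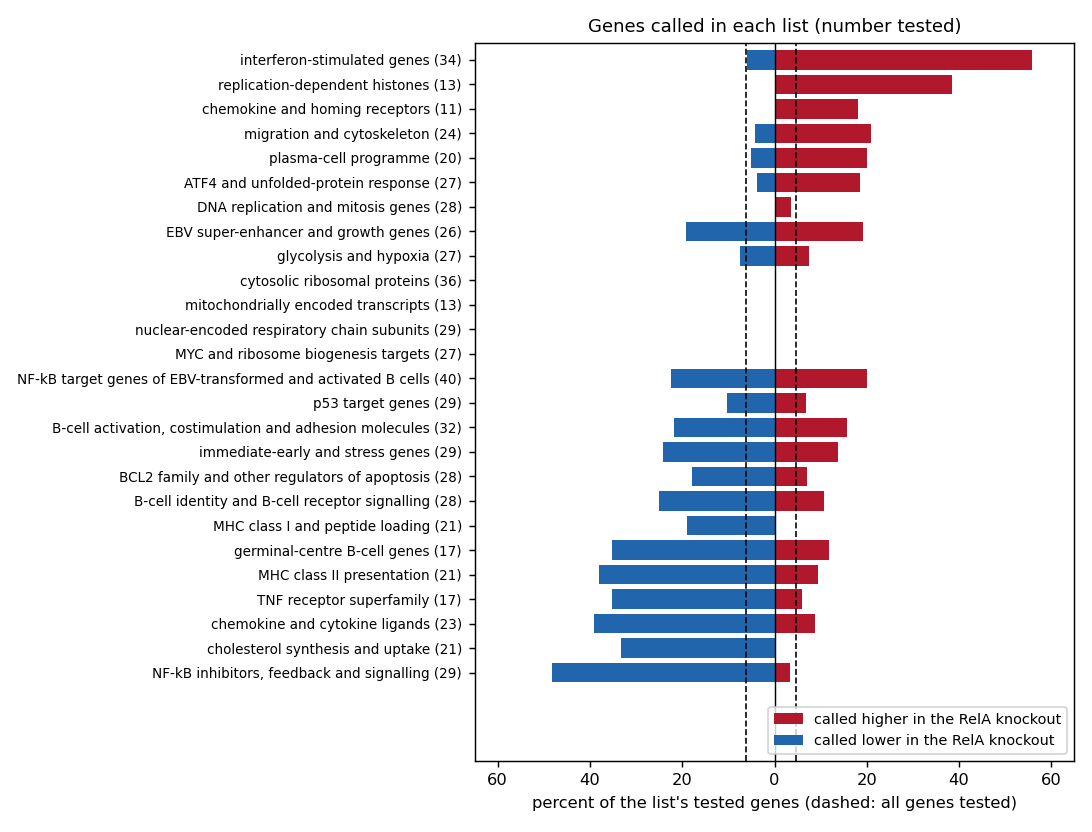
For the lists with at least 10 tested genes, cell-type marker lists left out, percent of tested genes called higher (red, right) or lower (blue, left) in the RelA knockout than in the cRel-labelled libraries; numbers in brackets are genes tested and dashed lines the share of all genes tested, 4.75% higher and 6.2% lower. Among the lists drawn, the interferon list reaches farthest right, with 19 of 34, and the NF-κB feedback list farthest left, with 14 of 29.

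Markers of other cell types were scarce. The 12 T and NK cell markers in the table summed to 502 to 578 in the RelA knockout, 382 to 405 in the cRel-labelled libraries and 462 to 623 in the control; CD3D was at 0 in both knockouts, and GNLY was among the called genes (log2 1.61, adjusted p 0.0022). Of the 6 tested, 2 were higher in the RelA knockout and 0 lower, beside 4.75% and 6.2% of all genes. Monocyte and macrophage markers summed to 465 to 506, 567 to 656 and 519 to 544, with ITGAM, the gene of CD11b, at 106 ± 18.3 against 252 ± 13.0 (log2 -1.25, adjusted p 9.4e-08). Of these markers 2 were tested, and ITGAM was the 1 called, beside 6.2% of all genes called lower. Fibroblast, endothelial and epithelial markers summed to 1249 to 1408, 1376 to 1645 and 1342 to 1503. Mitochondrial transcripts made up 3.95 to 4.21% of reads in the RelA knockout and 3.03 to 4.55% in the cRel-labelled libraries, and these ranges overlap. The part of such differences in the results was not tested, and in bulk RNA fewer cells of a type and less RNA per cell cannot be told apart.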

How the data were processed

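RNA of 18 GM12878 libraries in 6 groups of 3 was measured, with polyadenylated RNA taken from 1 µg of total RNA and a directional library kit, per the labels' protocols. Per the submitters' processing notes, the tools were STAR 2.5.2b for alignment (build GRCh37), featureCounts 1.5.1 for counting and DESeq2 1.14.1 for normalisation. Not given in the sources used here were the annotation and the use of strand in counting, and overlapping or antisense genes were therefore left unresolved. Deposited values are a normalised signal, that is, the authors' read counts divided by a size factor for each library: multiplying back gave whole reads within 0.0001 for 100% of 308790 values. Depth was 15.2 to 37.5 M reads over all libraries.

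The test was limma-trend (limma 3.58.1) of log2(value + 1), a scale that understates changes of genes with few reads, in 1 two-sided fit of all 18 libraries with a mean per group. R 4.3.3 was used. Alternatives were edgeR 4.0.16 and DESeq2 1.42.0 on the recovered reads, other pseudocounts, filters, scalings and sets of libraries, a replicate block, and leaving out each library. The script was tested on simulated data. Same-numbered libraries of the 2 knockouts correlated at 0.07, 0.05 and 0.13 in their deviations from group means, so the numbers were not taken as pairs. Transcript length, from GENCODE 29 on GRCh38, had a rank correlation of 0.002 with the direct difference across 12363 genes, which are not independent. With the deviations of control libraries 1, 2 and 3 from their mean it correlated at 0.11, 0.16 and -0.20. All 36 ribosomal protein genes lay below control, at log2 -0.30 to -0.10 in the RelA knockout and -0.25 to -0.11 in the cRel-labelled libraries, with 0 called. The part of such shifts in the comparisons with control was not tested.

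The comparison and the 31 gene lists (731 of 779 entries matched, 677 tested) were chosen with earlier results of these data known. Named by rule were the subunit genes; the 12 highest and 12 lowest differences among called genes with no overlap and a mean of at least 100 in the higher group; the 6 smallest p; the 6 most abundant with a log2 difference of at least 0.5; up to 4 called members per list and any member of the feedback and target lists; and 6 genes called in opposite and 6 in the same direction against control. 1 gene of the feedback list is counted but not reported here. Other genes named, called or not, were picked with their values in view. Promoters are RefSeq's on GRCh38.p14; no genome coordinates come from the deposited table.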

Additional observations from a re-analysis of the deposited data

How the results depend on the processing

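The direct count of 1356 genes was 1314 with edgeR, 1395 with DESeq2, 1288 with quantile scaling, 1345 with TMM scaling, 1353 and 1357 with pseudocounts of 0.5 and 10, 1334 with no filter, 1100 with a mean of at least 100, 1372 with 9 libraries and 1825 with only the 2 groups fitted. With the replicate block it was 1533, of which 1350 were also called without it; the numbers are not known to pair the libraries. Leaving out each library gave 926 to 1055 calls, 382 to 433 higher and 544 to 641 lower, and 413 to 848 for the RelA knockout and 448 to 821 for the cRel-labelled libraries against control. Counts that moved by over 1.5 times were 382 higher without cRel-labelled library 2; 454, 413 and 442 without RelA libraries 1 and 3 and control library 1; and 475, 448 and 481 without cRel-labelled libraries 2 and 3 and control library 3. With fewer libraries the spread is estimated from fewer values. Signs turned for genes that were not called: TRAF1 (log2 -0.0073 with quantile scaling, -0.0085 to 0.043 when a library was left out), TNF (-0.13 to 0.055 when a library was left out) and ENPP2 (-0.095 to 0.022). Over the genes named, 2391 results kept direction and side of the threshold, 39 lost the call, 16 gained it and 7 changed sign. Genes near a mean of 10 rest on few reads, and differences there are uncertain at this depth.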

Other observations

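Other gene families were grouped after their values were seen, so their counts are descriptions with no test over the family; of all genes tested 4.75% were called higher and 6.2% lower. Of 7 tested GIMAP genes, which encode lymphocyte GTPases and lie in a single cluster, 5 were higher in the RelA knockout than in the cRel-labelled libraries and 0 were lower by limma. GIMAP6 was at 2581, 2645 and 2693 in the RelA knockout, 1642, 1668 and 1834 in the cRel-labelled libraries and 2333, 2311 and 2543 in the control (direct log2 0.62, SE 0.062, adjusted p 1.6e-07), and GIMAP7 at 449 ± 28.8, 227 ± 5.40 and 431 ± 69.5 (log2 0.98, adjusted p 6.6e-06). The cRel-labelled libraries were the group below control for both (log2 -0.48 and -0.91, adjusted p 2.0e-05 and 4.6e-05). GIMAP2 and GIMAP8 were not called, with log2 differences of 0.17 and 0.16. Overlapping members of this cluster, such as GIMAP1 and GIMAP5, may share reads.

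Of 6 tested WNT ligand genes, 4 were lower and 0 higher in the RelA knockout by limma, beside 6.2% and 4.75% of all genes. WNT5A was at 552, 489 and 634 against 1084, 1054 and 1059.7 and 744 ± 62.7 in the control (log2 -0.94, SE 0.087, adjusted p 6.2e-08), and WNT10A at 1138, 1104 and 961 against 1964, 1961 and 1998 and 1725 ± 82.3 in the control (log2 -0.89, SE 0.079, adjusted p 3.8e-08). Of 25 interleukin receptor genes, 7 were lower and 2 higher, beside the same 6.2% and 4.75%. IL10RA, a receptor chain for interleukin 10, was at 975, 1044 and 1050 against 2027, 2254 and 2176 and 1362 ± 48.1 in the control (log2 -1.07, SE 0.072, adjusted p 7.1e-10), IL3RA at 635 ± 19.2 against 1334 ± 32.0 (log2 -1.07, adjusted p 1.7e-08) and IL18R1 at 324 ± 39.7 against 638 ± 46.2 (log2 -0.98, adjusted p 7.8e-08). IL1R2, a decoy receptor for interleukin 1, was higher, at 286 ± 27.3 against 139 ± 26.1 (log2 1.05, adjusted p 1.1e-05). Among 14 RGS entries, regulators of G-protein signalling, 5 were lower and 3 higher, beside 6.2% and 4.75% of all genes, with RGS1 at 2022 ± 262 against 4102 ± 376 (log2 -1.02, adjusted p 3.3e-06) and RGS16 at 1760.2 ± 98.0 against 1216 ± 96.1 (log2 0.54, adjusted p 1.3e-04). Families looked at in the same way with a median near 0 were 12 genes with symbols in KLF, 2 higher and 0 lower (median log2 difference 0.036), and 12 with symbols in IRF, 3 higher and 3 lower (median 0.051). Grouping by symbol put the genes of IRF2-binding proteins IRF2BP1, IRF2BP2 and IRF2BPL in the last group, and IRF2BP2 was among its higher genes. Of 7 ANO genes 1 was higher and 3 were lower (median -0.14), of 3 TCF and LEF genes 1 was higher and 0 lower (median -0.12), of 7 interleukin genes 1 was higher and 4 were lower (median -0.58), of 3 IFITM genes 2 were higher and 0 lower (median 1.02), and both tested SPRR genes were higher.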
